A study of Mus musculus with 3 samples.

Results

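The 7 transcription factors of an osteogenic program followed across the cells of the molar root were Runx2, Sp7 (also called osterix), Dlx3, Dlx5, Dlx6, Msx1 and Msx2. They were chosen by name, and all 7 were found by gene identifier among the 21438 identifiers that the 3 single-cell RNA libraries share. Single cells came from mandibular first and second molars (M1 and M2) of mice on a C57BL/6 background that carry a Pthrp-mCherry knock-in reporter, which marks cells expressing parathyroid hormone-related protein. One library was made at postnatal day 15 (P15), when acellular cementum is complete, one at P25, when cellular cementum begins to form, and one at 8 weeks. The study used mice of both sexes, and the sex of the animals in each library is not given. Molars were dissociated with Liberase, mCherry-positive cells were collected by flow sorting from cells pooled over mandibles, and a P6 library was not analysed here. All groups carry the reporter allele, and no treatment or deletion separates them. The reporter follows the Pthrp locus and is not a cementoblast-only driver, and the sorted cells held cells with epithelial and blood markers, described below.

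Runx2 is the runt-domain factor without which osteoblasts do not form, and Sp7 is a zinc-finger factor that acts downstream of it in the same lineage. Dlx3, Dlx5, Dlx6, Msx1 and Msx2 are homeodomain factors that pattern the jaws and teeth and later bind promoters of bone matrix genes, where Msx and Dlx proteins are known to compete for related sites. Cementoblasts, which lay down the mineralized layer that anchors the periodontal ligament to the root, share much of this program with osteoblasts.

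The genes lie at separate loci except for one pair. On the mouse build GRCm38 (GENCODE annotation), Runx2 spans chr17:44495987-44814797 on the minus strand, Sp7 chr15:102356606-102367182 on the minus strand, Dlx3 chr11:95120119-95125296 on the plus strand, Msx1 chr5:37820485-37824583 on the minus strand and Msx2 chr13:53466884-53473074 on the minus strand. Dlx6 (chr6:6863334-6868568, plus strand) and Dlx5 (chr6:6877805-6882085, minus strand) face each other across 9236 bases. The whole of Dlx6, 5235 bases, lies inside the antisense gene Dlx6os1.

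Promoter sequence is shown because members of these families are known to act on each other's genes, and RefSeq (GRCm38.p6) start sites were at hand for 3 of the 7 genes, Runx2, Msx1 and Msx2. The 250 bases before each start were searched on both strands for the runt-domain letters AACCACA, the homeodomain letters TAATTA and TAATTG, and the GC box GGGCGG that zinc-finger factors of the Sp family bind. The Msx1 window, shown whole because it lies entirely before the annotated gene, held no runt-domain or homeodomain letters and 1 GC box, read on the opposite strand and set in capitals, 72 bases before the start. The Runx2 and Msx2 starts lie 170 and 294 bases inside longer annotated gene models, so only short stretches around each match are shown. The Runx2 stretch (chr17:44814690-44814719) carries a runt-domain match in capitals, 81 bases before the start. The first Msx2 stretch (chr13:53472950-53472979) carries TAATTA in capitals, 187 bases before the start, and the second (chr13:53472923-53472952) a GC box in capitals, 160 bases before it. All are given 5′ to 3′ on the minus strand, on which the genes lie.
Msx1, chr5:37824586-37824835: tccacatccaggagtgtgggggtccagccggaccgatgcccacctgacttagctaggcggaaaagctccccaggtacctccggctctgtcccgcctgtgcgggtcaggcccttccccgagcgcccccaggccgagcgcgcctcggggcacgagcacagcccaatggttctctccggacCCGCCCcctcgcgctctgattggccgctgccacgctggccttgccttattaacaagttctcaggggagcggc
Runx2, runt-domain letters: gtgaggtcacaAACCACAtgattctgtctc
Msx2, homeodomain letters: tgactgctcctgTAATTAactcctaattta
Msx2, GC box: ttatttcaaacgGGGCGGgggaagggcccc

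Of 32851 promoter windows of that length, 4.4% held AACCACA, 4.84% TAATTA, 7.17% TAATTG and 32.7% GGGCGG, and no TAATTG was found in the 3 windows. The Runx2 window had 44.8% G and C against a median of 52.4% over all windows, while the Msx1 and Msx2 windows had 68% and 61.6%. These matches describe letters and were not tested for binding. Sp7, Dlx3, Dlx5 and Dlx6 had no window to show.

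The P15 library held 12926 cells, the P25 library 8971 and the 8 weeks library 5192, with medians of 14214, 14995 and 8689.5 unique molecular identifiers (UMIs, counted mRNA molecules) per cell in the shared genes. Cells were gated by the UMIs of one marker each, needing at least 2 UMIs and a minimum rate per 10000 UMIs, so that no member took part in sorting the cells. Ibsp+ cells (bone sialoprotein, the gene the study uses for its cementoblast α) numbered 1512, 1108 and 922 at P15, P25 and 8 weeks. Ifitm5+ cells (a membrane protein of mineralizing cells, used for cementoblast β) numbered 466, 718 and 250, and this gate took cells with or without Ibsp. Hand2+ cells numbered 229, 292 and 168. Cells passing both the Ibsp and the Hand2 gate were kept apart as Ibsp+Hand2+ and numbered 40, 801 and 648. The other gates marked perivascular cells (Rgs5+, 205, 15 and 45 cells), Pappa2+ cells (271, 6 and 8), epithelium (Krt14+, 1858, 990 and 140) and blood cells (Ptprc+, 750, 196 and 17).

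The gates did not separate the classes fully, and the values bear on what follows. Bglap (osteocalcin), a marker of mature mineralizing cells, stood at 2050, 2450 and 5230 CPM (the UMIs of a gene per 1000000 UMIs of the class) in Ibsp+ cells against 8820, 15700 and 27300 CPM in Ifitm5+ cells and 50, 77 and 163 CPM in Ibsp+Hand2+ cells. Nts, a marker of the apical Hand2 cells, stood at 13, 372 and 583 CPM in Ibsp+ cells against 965, 1230 and 1080 CPM in Ibsp+Hand2+ cells. The Ibsp+ class thus held markers of both neighbouring classes at P25 and 8 weeks, and their part in the results was not tested except where a value without such cells is given. Rgs5+ cells of 8 weeks had 9 CPM of the pericyte gene Notch3 against 596 CPM at P15, so the label perivascular did not hold for that library. The osteocyte genes Sost and Mepe were near 0. Ibsp itself stood at 16030, 16950 and 19630 CPM in Ibsp+ cells and at 13970, 10030 and 18590 CPM in Ifitm5+ cells. The Ifitm5+ class was thus not a class of low Ibsp. Between 13 and 26 cell barcodes were shared by any 2 libraries.

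A level below is the CPM of the summed UMIs of a class, with a 95% Poisson interval that covers counting error only. Levels, ratios within a library and shares of thinned cells all rest on total UMIs. Between Ifitm5+ and Ibsp+ cells, total UMI scaling put the median log2 fold change of all genes at -0.21, against -0.01 in the edgeR fit reported below. How much this shift adds to a lower level or share in Ifitm5+ cells was not tested. Reads were counted from the 3′ end, so a level is not scaled by gene length and is compared between classes rather than between genes. Each time point has 1 library, so differences between time points have no replicate check. P25 was also processed with another software version and gene reference, which cannot be told apart from its age.

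Runx2 was lower in Ifitm5+ than in Ibsp+ cells in each library. It measured 454 CPM (446 to 463) at P15, 292 (284 to 300) at P25 and 370 (355 to 384) at 8 weeks in Ibsp+ cells. In Ifitm5+ cells it measured 332 (320 to 345), 174 (168 to 180) and 274 (256 to 293) CPM. Intervals of the classes did not overlap within any library, and P25 was the lowest library in both. Ibsp+Hand2+ cells, at 382, 303 and 368 CPM, lay close to Ibsp+ cells at P25 and 8 weeks, and the Pappa2+ cells of P15 had 463 CPM (444 to 482). Krt14+ cells had 76.3, 40.4 and 25.3 CPM. Ptprc+ blood cells, which do not build bone and are taken here as a background, had 46.9 CPM at P15 and 40.4 CPM at P25. Whether these UMIs come from free RNA, doublets or the blood cells themselves was not tested. Of the 750 cells of P15, 57 were among the top 6% by doublet score.

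Sp7 showed the opposite order of those classes. Ibsp+ cells had 89.1 (85.2 to 93), 125 (119 to 130) and 118 (109 to 126) CPM at P15, P25 and 8 weeks, while Ifitm5+ cells had 134 (127 to 142), 174 (168 to 180) and 134 (121 to 147) CPM. The class intervals were apart at P15 and P25 and overlapped at 8 weeks. Ibsp+Hand2+ cells had 136, 138 and 130 CPM and Hand2+ cells 81.3, 127 and 139 CPM. Sp7 in Ptprc+ cells was 13.6 and 19.5 CPM, and in Krt14+ cells it went from 11 and 6.74 CPM to a single UMI at 8 weeks.

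**Figure D1:**
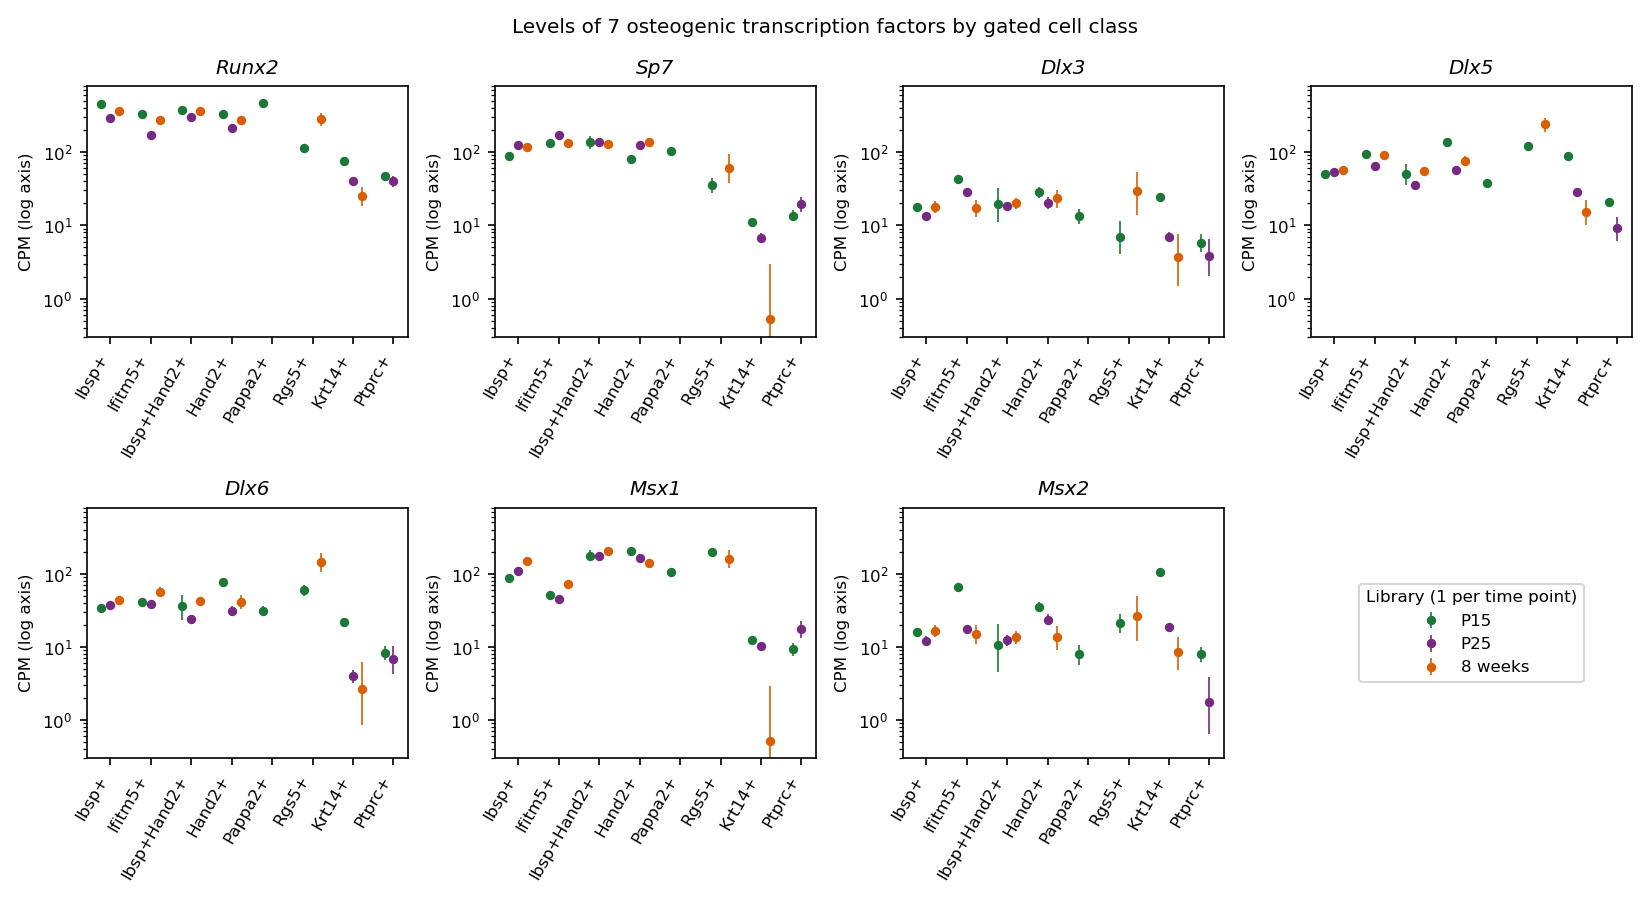
Level of each of the 7 transcription factors, in CPM on a log axis, in each class of gated cells. Each point is 1 library (P15, P25 or 8 weeks), and bars are 95% Poisson intervals. Runx2 lies lower and Sp7 higher in Ifitm5+ than in Ibsp+ cells of each library, and Msx1 lies lower in Ifitm5+ than in Ibsp+ cells.

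Dlx5, a homeodomain factor that acts on Runx2 and Sp7 in bone, was higher in Ifitm5+ than in Ibsp+ cells. It measured 50.5 (47.6 to 53.5), 53.6 (50.2 to 57.2) and 57.3 (51.6 to 63.4) CPM in Ibsp+ cells. In Ifitm5+ cells it measured 94.6 (88.3 to 101), 63.9 (60.3 to 67.6) and 91.7 (81.3 to 103) CPM. The difference was smallest at P25, and in each library the intervals were apart. Neither class held the highest Dlx5: Rgs5+ cells had 122 CPM at P15 and 239 CPM at 8 weeks, Hand2+ cells had 138 CPM at P15, and the cells that passed no gate had 150, 102 and 152 CPM. Its neighbour Dlx6 was also highest in the Rgs5+ cells of 8 weeks, with 34.3, 37.7 and 44 CPM in Ibsp+ cells, 41, 38 and 56.2 CPM in Ifitm5+ cells and 59.5 and 143 CPM in Rgs5+ cells. At P25 the Dlx6 levels of Ibsp+ and Ifitm5+ cells could not be told apart by counting error.

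Dlx3, the Dlx gene tied to tooth and bone defects, and Msx2, a homeodomain factor of craniofacial osteoblasts, had higher values in Ifitm5+ than in Ibsp+ cells mainly in the younger libraries. Dlx3 was 17.6, 13.2 and 17.8 CPM in Ibsp+ cells and 42.5, 28.4 and 17.2 CPM in Ifitm5+ cells, so that the classes overlapped at 8 weeks. Msx2 was 15.8, 12.1 and 16.5 CPM in Ibsp+ cells and 65.6 (60.3 to 71.2), 17.4 (15.6 to 19.4) and 14.9 (10.9 to 19.9) CPM in Ifitm5+ cells. The excess in Ifitm5+ cells was thus large at P15, small at P25 and not seen at 8 weeks. Msx2 was higher still in the Krt14+ epithelium of P15, at 106 CPM (102 to 110), against 18.8 and 8.43 CPM in the epithelium of P25 and 8 weeks. Cells that passed no gate had 61.5, 25.2 and 27.6 CPM.

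Msx1, the homeodomain factor needed for tooth development, was lower in Ifitm5+ than in Ibsp+ cells of each library. Ibsp+ cells had 87 (83.2 to 90.9), 109 (104 to 114) and 148 (139 to 158) CPM, and Ifitm5+ cells had 51.1 (46.5 to 56.1), 44.9 (41.9 to 48) and 71.5 (62.4 to 81.6) CPM. Ibsp+Hand2+ cells stood above both, at 177 (148 to 210), 175 (167 to 182) and 201 (191 to 212) CPM, and Hand2+ cells at 203, 164 and 139 CPM. The increase with age in Ibsp+ cells moved with the apical markers: when Ibsp+ cells holding a UMI of Hand2, Nts or Alx1 were left out, a choice made after seeing the data, 1411, 604 and 456 cells remained and Msx1 was 87.5, 82.1 and 81.4 CPM. At 8 weeks this Msx1 level lay within the interval of Ifitm5+ cells, 62.4 to 81.6 CPM, so the lower level in Ifitm5+ cells was not clear there. Runx2 in the remaining Ibsp+ cells was 463, 296 and 386 CPM, close to its level in the whole class.

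Differences between classes were tested with edgeR's quasi-likelihood F test on summed UMIs, 1 sum per class and library, with Benjamini-Hochberg adjustment over all genes tested and a threshold of 0.05. The 3 libraries that serve as replicates are of different ages, so the spread includes age, and the classes of a library come from the same pooled animals. A second fit took the library as a block and is given for a member wherever it changed the call, and for the gene lists as counts. Counts at an unadjusted p are given without a share over all genes, so they do not set the members or the lists apart from other genes.

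Between Ifitm5+ and Ibsp+ cells, 1 of the 7 members was called higher, where 1.23% of 12200 genes were, and none was called lower, where 1.39% of genes were. Dlx5 was the member called, with a log2 fold change of 0.81 (SE 0.13, adjusted p = 0.0261). Without adjustment 4 members passed a p of 0.05 as higher and 1 as lower. DESeq2 called 2 higher and 1 lower, where it called 501 and 483 of 12675 genes. The Dlx5 call was lost without any 1 of the 3 libraries, with adjusted p between 0.13 and 0.21, and when sums were scaled by total UMIs (log2 0.63, adjusted p = 0.10), a scaling that moved the median of all genes by -0.21. It was also lost, at an adjusted p of 0.068, when Ibsp+ cells with Hand2, Nts or Alx1 UMIs were left out.

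With the library as a block, 4 members were called higher, where 914 of 12200 genes were, and 2 lower, where 944 genes were. The block thus raised the calls over all genes as well. The log2 fold changes without the block were 0.63 for Sp7 (SE 0.23, adjusted p = 0.206, blocked 0.012), 1.07 for Dlx3 (SE 0.29, adjusted p = 0.107, blocked 0.0498) and 0.41 for Dlx6 (SE 0.18, adjusted p = 0.28, blocked 0.0403). Those of the members lower in Ifitm5+ cells were -0.85 for Msx1 (SE 0.24, adjusted p = 0.115, blocked 0.00366) and -0.34 for Runx2 (SE 0.21, adjusted p = 0.452, blocked 0.0308). Dlx5 had a blocked adjusted p of 0.00689. Msx2, at 1.30 (SE 0.53, adjusted p = 0.268, blocked 0.168), passed in neither fit, and its log2 ratios were 2.05 within the P15 library, 0.52 within P25 and -0.15 within 8 weeks. The members were divided by direction, as the zinc-finger factor Sp7 and the 3 Dlx genes lay on the Ifitm5+ side, and Runx2 and Msx1 on the Ibsp+ side. Their median log2 fold change was 0.63 against -0.01 over all genes tested.

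**Figure D2:**
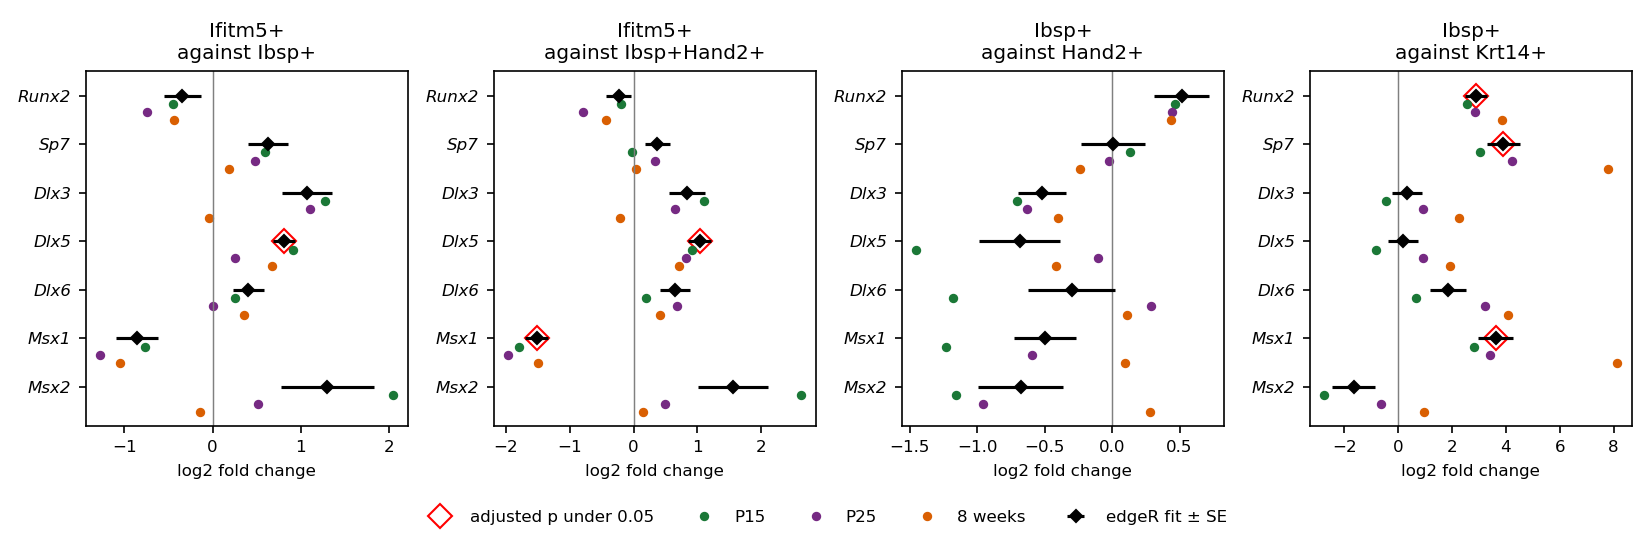
Log2 fold change of each of the 7 transcription factors in 4 comparisons of classes (diamonds, edgeR fit, bars are standard errors, red outlines mark an adjusted p under 0.05), with the log2 ratio of CPM in each single library as coloured points. Points of the single libraries are scaled by total UMIs and the fit by TMM factors, so the points may sit off the fitted value. The fitted values of Sp7, Dlx3, Dlx5, Dlx6 and Msx2 lie above 0 and those of Runx2 and Msx1 below 0 for Ifitm5+ against Ibsp+ cells.

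Msx1 and Dlx5 were the members called between Ifitm5+ and Ibsp+Hand2+ cells, a comparison added after seeing the data that shares the Ifitm5+ sums with the one before. Dlx5 was higher in Ifitm5+ cells by 1.04 (SE 0.18, adjusted p = 0.00712) and Msx1 lower, at -1.52 (SE 0.18, adjusted p = 0.00134), on the log2 scale. So 1 of 7 members was called higher, where 8.13% of 11655 genes were, and 1 lower, where 6.50% of genes were. With 7 members, 1 call is the smallest count above none, so these counts do not set the members apart from all genes. DESeq2 called 2 higher and 1 lower, where it called 988 and 710 of 13458 genes. Msx1 alone was called without the 8 weeks library, where Dlx5 had an adjusted p of 0.0701, and in the joint fit of all classes, where Dlx5 had 0.179. The block added Dlx3 (log2 0.84, adjusted p = 0.0835, blocked 0.0391) and Dlx6 (log2 0.65, adjusted p = 0.0971, blocked 0.00683). It called 1696 genes higher and 1457 lower of 11655. Runx2 (-0.24), Sp7 (0.37) and Msx2 (1.56, SE 0.55) were not called in either fit.

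Against Hand2+ cells, no member was called in Ibsp+ cells by edgeR or DESeq2, where 2.84% of 11626 genes were called higher and 1.53% lower. Without adjustment 1 member passed as higher and 1 as lower. Runx2 had a log2 fold change of 0.52 (SE 0.20, adjusted p = 0.234), which was called with the block (adjusted p = 0.0125). The block called 746 genes higher and 566 lower of 11626. The homeodomain members all had fitted values below 0, from -0.30 for Dlx6 (SE 0.32) to -0.69 for Dlx5 (SE 0.30), and Sp7 was at 0.01 (SE 0.24). Within single libraries, only Dlx3 and Dlx5 of these lay below 0 in all 3. The log2 ratio of Dlx6 was -1.18 at P15 but 0.29 at P25 and 0.108 at 8 weeks. Those of Msx1 and Msx2 were 0.0941 and 0.283 at 8 weeks, with intervals that held 0. When Ibsp+ cells with Hand2, Nts or Alx1 UMIs were left out, Msx1 was lower by a log2 value of -0.94 with an adjusted p of 0.019. In that fit 484 genes were higher and 305 lower of 11418. The filter was chosen after seeing that Msx1 moved with these markers, and it removed cells from the Ibsp+ arm alone. The Msx1 call is thus no separate result.

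Ibsp+Hand2+ cells compared with Hand2+ cells, also added after seeing the data, gave 0 members called by edgeR or DESeq2, where 1.25% of 11223 genes were higher and 1.91% lower. Unadjusted, 1 member passed as higher and 2 as lower. With the block Runx2 was higher (log2 0.44, adjusted p = 0.00335) and Dlx5 lower (log2 -0.70, adjusted p = 0.0266). The block called 563 genes higher and 818 lower of 11223. Msx1 was not called between these Hand2 classes, at 0.18 with an adjusted p of 0.819, and Sp7 stood at 0.28 (adjusted p = 0.70). The log2 ratio of Msx1 was -0.201 within P15, 0.095 within P25 and 0.537 (0.354 to 0.723) within 8 weeks.

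Against Rgs5+ cells, with 5 sums because P25 had only 15 such cells, no member was called, where 0.434% of 11994 genes were higher and 0.275% lower. Without adjustment 2 members passed in each direction. DESeq2 called Sp7 higher and Dlx5 lower, where it called 312 and 419 of 12879 genes. Sp7 had a log2 fold change of 1.46 (SE 0.33, adjusted p = 0.116) and Dlx5 of -1.56 (SE 0.31, adjusted p = 0.0867). Runx2 was at 1.10 (SE 0.44) and Dlx6 at -1.14 (SE 0.39). Within single libraries the log2 ratio of Dlx5 was -1.28 at P15 and -2.06 at 8 weeks, and that of Dlx6 was -0.792 and -1.7. Without the P15 library the Rgs5+ arm was the 8 weeks sum alone, the class with little Notch3. That fit cannot measure the spread of Rgs5+ cells, so its calls are not given. Pappa2+ cells reached 20 cells only at P15 and could not be tested. There the log2 ratio of Ibsp+ to Pappa2+ cells was -0.03 for Runx2, -0.21 for Sp7 and 1.01 (exact interval 0.53 to 1.51) for Msx2.

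Runx2 (log2 2.88, SE 0.40, adjusted p = 0.00263), Sp7 (3.90, SE 0.61, adjusted p = 0.0038) and Msx1 (3.62, SE 0.66, adjusted p = 0.00647) were higher in Ibsp+ than in Krt14+ cells, so 3 of 7 members were called higher, where 21.4% of 13167 genes were, and none lower, where 20.8% of genes were. Without adjustment 4 members passed as higher and 0 as lower, the same counts that DESeq2 called, where it called 3058 and 2909 of 14321 genes. Dlx6 had 1.86 (SE 0.67, adjusted p = 0.0636, blocked 0.0465), where the block called 3106 of 13167 genes higher. Dlx3 (0.33, adjusted p = 0.678), Dlx5 (0.19, adjusted p = 0.811) and Msx2 (-1.66, SE 0.80, adjusted p = 0.139) were not called. Leaving out P25 left Runx2 alone, where 739 of 12979 genes were higher. Leaving out P15 gave 6 calls, all but Msx2, where 3005 of 12728 genes were higher. The 8 weeks values of Sp7 and Msx1 rest on 1 UMI each in the epithelium, with log2 ratios of 7.80 (5.32 to 13.1) and 8.14 (5.65 to 13.4).

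Other genes of the pathway were read from a list of 34 partner and regulator transcription factors and a list of 25 genes of mineralizing cells. The genes of the second list are known as targets of these factors or as genes that follow them, and are called matrix genes below. Some of them, such as Dkk1, Sost, Bmp2, Bmp4, Pth1r and Tnfsf11, code for signals or receptors and not for matrix. Between Ifitm5+ and Ibsp+ cells, where 1.23% of all genes were higher and 1.39% lower, 0 of 32 tested factors rose and 3 fell: Snai2 (log2 -2.09, adjusted p = 0.0293), Prrx1 (-0.97, adjusted p = 0.0336) and Twist1 (-0.90, adjusted p = 0.0126), all factors of mesenchymal progenitors, with Twist1 known to hold Runx2 in check. At an unadjusted p of 0.05, 2 factors were higher, and DESeq2 called 2. The list's median was -0.24 against -0.01 for all genes. Of 23 matrix genes tested, 5 rose and 0 fell, among them Col11a2 (2.79), Smpd3 (2.27), a sphingomyelinase needed for mineralization, and Dmp1 (2.15), a matrix protein of late osteoblasts and osteocytes. Unadjusted, 16 matrix genes were higher and 1 lower, and the list's median was 1.28. DESeq2 called 15 and 0, where it called 501 and 483 of 12675 genes. Several genes of this list are known markers of the cells the Ifitm5 gate takes. The study lists Col11a2, Smpd3, Dmp1, Bglap, Phex, Col1a1 and Sparc, with Ifitm5, for its cementoblast β. It drew that cluster from these libraries and a P6 library, so a rise of these genes under the Ifitm5 gate is no separate result. In alternatives added after seeing the data, without P25 or without 8 weeks, no gene of either list was called in this comparison. Over all genes, 1 was higher and 1 lower of 11748 without P25, and 0 and 0 of 12821 without 8 weeks. The lack of list calls there thus says nothing about the lists. With the block 2 factors were higher and 9 lower and 13 matrix genes higher and 1 lower, where 914 and 944 of 12200 genes were.

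Against Ibsp+Hand2+ cells the same lists gave 5 factors higher and 8 lower of 33 and 16 matrix genes higher of 22, with 0 lower by edgeR, by DESeq2 or unadjusted, where 8.13% of all genes were higher and 6.50% lower. With the block 6 factors were higher and 11 lower and 13 matrix genes higher, and without 8 weeks the numbers were 1, 4 and 7. Without P25 they were 1, 3 and 10. Over all genes the block called 1696 higher and 1457 lower of 11655. Without 8 weeks 242 and 142 of 12072 genes were called, and without P25 261 and 159 of 11180. The homeodomain factor Pitx1 (2.79), the vitamin D receptor Vdr (2.29) and Mef2c (1.69) led the factors that rose in Ifitm5+ cells, and Alx4 (-3.78) and Snai2 (-2.86) were among those that fell. Bglap (7.69), Dkk1 (6.76) and Bglap2 (6.53) led the second list. The cementoblast β markers named above, Bglap among them, count here too, and their rise is again no separate result.

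In Ibsp+ cells against Hand2+ cells, where 2.84% of all genes were higher and 1.53% lower, 2 of 33 factors rose, Mef2c (2.49) and Runx1 (1.04), and 3 fell, Hey1 (-1.52), Sox9 (-0.89) and Runx3 (-0.80), while 6 of 20 matrix genes rose, led by Dmp1 (6.56) and Spp1 (6.39). In Ibsp+Hand2+ against Hand2+ cells, where 1.25% of all genes were higher and 1.91% lower, 1 factor rose (Mef2c, 1.61) and 1 fell (Runx3, -0.999), and 5 of 19 matrix genes rose and 2 fell. Spp1 (6.45), Dmp1 (6.25) and Enpp1 (4.43) rose, and the collagenase Mmp13 (-3.27) and Tnfsf11 (-2.52), the ligand that drives osteoclast formation, fell. Against the epithelium, where 21.4% of all genes were higher and 20.8% lower, 21 of 33 factors rose, among them Alx4 (4.75), 2 fell, Pitx1 (-5.50) and Runx1 (-2.50), and 19 of 20 matrix genes rose. Against Rgs5+ cells 0 of 33 factors were called by edgeR (5 higher and 5 lower unadjusted, 4 and 4 by DESeq2), and 5 of 20 matrix genes were called higher, among them Ank (3.62), where 0.434% of all genes were. These 5 calls rest on few sums: with the block, or without P25, 0 matrix genes were called, and Ank had a blocked adjusted p of 0.0628. Over all genes, DESeq2 called 312 higher and 419 lower there, and the block 1 and 0. The study lists Dmp1, Enpp1 and Ank, with Ibsp, for its cementoblast α, a cluster drawn in part from these libraries. Their rise under the Ibsp gate in the comparisons of this paragraph is thus no separate result. No matrix gene was called lower in Ibsp+ cells against Hand2+ or Rgs5+ cells, where 1 was lower unadjusted in each and 0 by DESeq2, or against Krt14+ cells, where 0 were lower either way.

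The block and the libraries moved the other list counts as well. With the block, 6 factors were higher and 6 lower and 9 matrix genes higher in Ibsp+ against Hand2+ cells, where 746 and 566 of 11626 genes were. In Ibsp+Hand2+ against Hand2+ cells, 5 factors were higher and 8 lower and 5 matrix genes higher and 6 lower, where 563 and 818 of 11223 genes were. Without P25 or without 8 weeks, 0 factors were called in either of these comparisons, and 4 matrix genes were higher in each. Few genes of any kind were called there. In Ibsp+ against Hand2+ cells 15 were higher and 0 lower of 11658 without P25, and 16 and 5 of 12461 without 8 weeks. In Ibsp+Hand2+ against Hand2+ cells it was 18 and 23 of 10819, and 10 and 5 of 11416. The lack of factor calls thus does not set that list apart. Against the epithelium, 7 factors and 13 matrix genes were higher without P25, where 739 of 12979 genes were.

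All Ibsp+ and Ifitm5+ cells were then grouped by their Ifitm5 UMIs after thinning each cell to 3000 UMIs. Levels in these groups are scaled by total UMIs, so the shift between the classes named above is not removed. This grouping uses the same cells and the marker of the gate, so it shows the gated comparison in finer steps and is no separate check of it. Runx2 went down in each library, from 448 CPM in cells with no Ifitm5 UMI to 446, 354 and 231 CPM in cells with 1, with 2 to 4 and with 5 or more at P15. It went from 286 to 211, 174 and 150 CPM at P25 and from 363 to 302, 283 and 234 CPM at 8 weeks. Sp7 went the other way between the ends of the scale, from 90.6 to 146 CPM at P15, from 132 to 172 CPM at P25 and from 118 to 150 CPM at 8 weeks. The ratio of these factors thus shifted in all 3 libraries, with most of the Runx2 change at P15 in cells with 2 or more Ifitm5 UMIs.

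Msx1 dropped at the first step at P25 and 8 weeks, from 104 to 55.2 CPM and from 158 to 53.2 CPM between cells with no and with 1 Ifitm5 UMI, and more gradually at P15, from 88.1 to 61.1, 50.9 and 43.6 CPM. The cells without Ifitm5 UMIs include those with apical markers named above. Msx2 rose along the scale at P15, from 18.3 to 31, 60.2 and 82.6 CPM. It went from 12.3 to 19.1 CPM at P25 and from 17.1 to 10.5 CPM at 8 weeks, so its association with Ifitm5 at P15 was not repeated at 8 weeks. Dlx5 went from 51.1 to 105, from 55.2 to 68.2 and from 59.3 to 76.5 CPM between the ends at P15, P25 and 8 weeks, and Dlx3 from 17.9 to 49.1, from 15 to 28.1 and from 17.4 to 16.5 CPM. The 8 weeks groups were small, with 50 cells at 5 or more Ifitm5 UMIs.

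**Figure D3:**
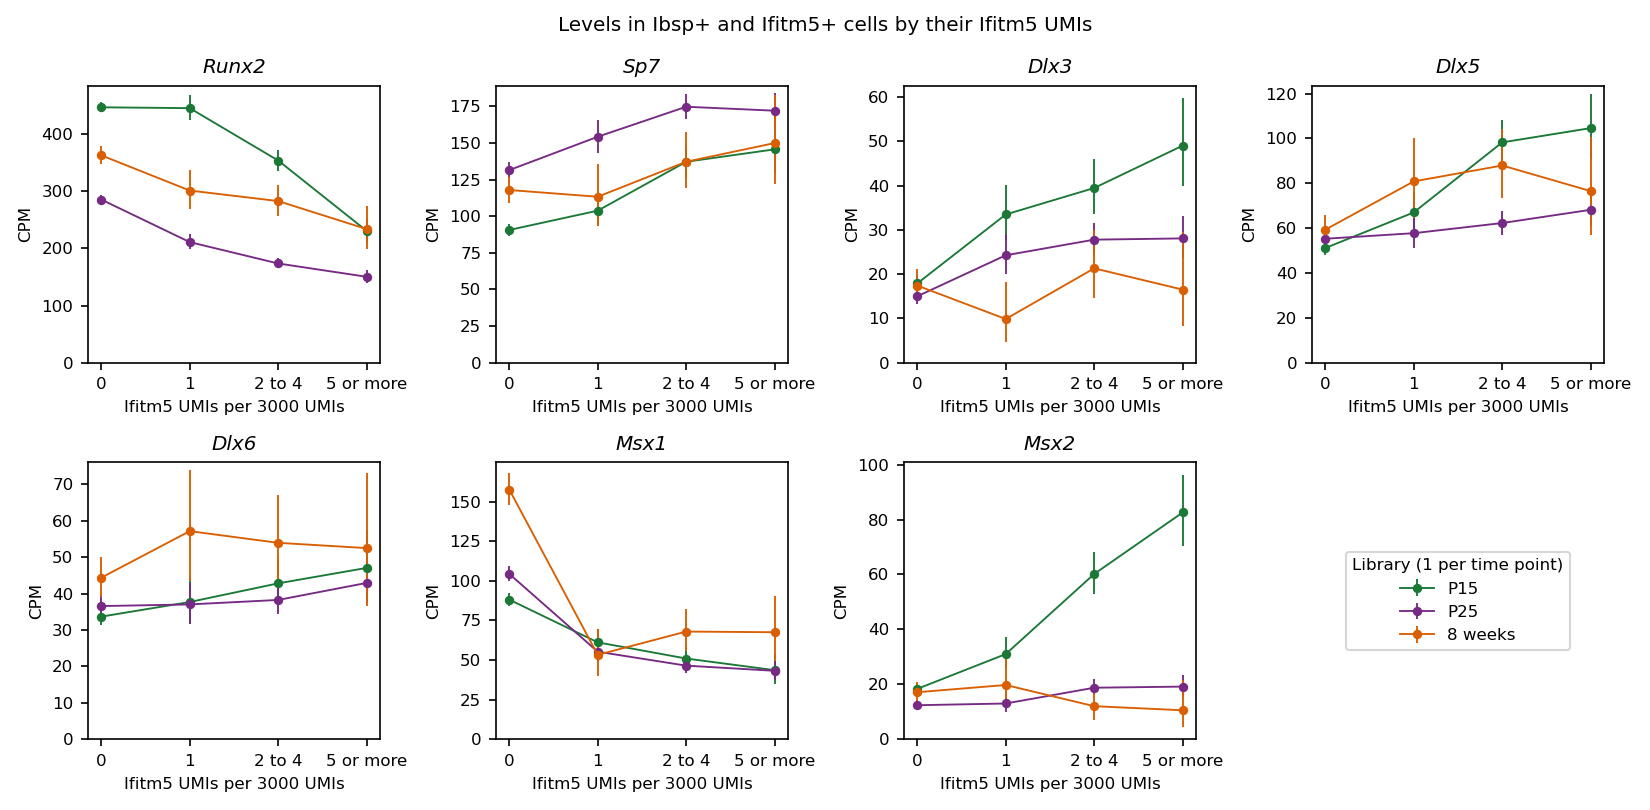
Level of each transcription factor, in CPM, in Ibsp+ and Ifitm5+ cells grouped by their number of Ifitm5 UMIs per 3000, with 1 line per library and 95% Poisson intervals. Runx2 and Msx1 end lower and Sp7 and Dlx5 end higher in cells with 5 or more Ifitm5 UMIs than in cells with none in all 3 libraries, and Msx2 rises steeply at P15 alone.

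Among Ibsp+ cells, the number of Ibsp UMIs per 3000 ordered the same pair in the reverse sense. From cells with under 10 Ibsp UMIs to cells with 100 or more, Runx2 went from 382 to 530 CPM at P15, from 268 to 351 CPM at P25 and from 290 to 462 CPM at 8 weeks. Sp7 went from 98.5 to 68.1 CPM, from 151 to 92.5 CPM and from 140 to 91.8 CPM in the same libraries. Ibsp is also the marker of this gate, and what links its level to these factors was not tested. Msx1 went from 82.8 to 142 CPM at P25 and from 89.2 to 239 CPM at 8 weeks but from 105 to 79.4 CPM at P15.

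In single cells, the share of cells with at least 1 UMI was compared after thinning to 3000 UMIs, since Ifitm5+ cells were deeper (medians of 17191.5, 22699.5 and 11113.5 UMIs) than Ibsp+ cells (14472, 13021.5 and 7046). Thinning left out 135, 71 and 292 Ibsp+ and 5, 10 and 11 Ifitm5+ cells. Runx2 was found in 71.8%, 55.6% and 63.3% of Ibsp+ cells and in 59.2%, 40.7% and 56.9% of Ifitm5+ cells, against 9.35% and 6.67% of Ptprc+ cells at P15 and P25. Unthinned, the shares were 91.5%, 88.6% and 71.7% in Ibsp+ and 93.3%, 88.7% and 89.2% in Ifitm5+ cells, so the order of the classes at equal depth was not seen without thinning. Sp7 was found in 21.8%, 29.7% and 29.5% of Ibsp+ cells and 31.2%, 38.7% and 31.8% of Ifitm5+ cells, against 2.12% and 2.05% of Ptprc+ cells, and unthinned in 56.5%, 70.1% and 43.7% and in 77.5%, 90.5% and 70.8%.

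Msx1 was found in 22.8%, 27.7% and 36.3% of thinned Ibsp+ cells, 14.1%, 12.4% and 19.2% of Ifitm5+ cells and 45%, 39.3% and 41.4% of Ibsp+Hand2+ cells. Blood cells held it in 1.98% and 0.513%. The classes came in the same order as by level, with Ifitm5+ cells lowest. Dlx5 was in 12.6%, 14.5% and 15.7% of Ibsp+ cells and 24.7%, 17.5% and 19.7% of Ifitm5+ cells, and Dlx6 in 8.93%, 10.3% and 10.6% and in 12.8%, 11.7% and 17.2%. Dlx3 was in 4.94%, 3.57% and 4.76% of Ibsp+ cells and Msx2 in 4.21%, 2.6% and 5.4%. The Ptprc+ cells of P15, the background for these 4 genes, had shares of 5.1% for Dlx5, 2.41% for Dlx6, 1.42% for Dlx3 and 1.27% for Msx2. Those of P25 had 1.54% for Dlx5, 0.513% for Dlx6 and, for Dlx3 and Msx2, 0 of 195 thinned cells, with an exact upper bound of 1.87%. Without thinning the same P25 cells held Dlx3 in 4.59% and Msx2 in 3.06%.

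The number of members with a UMI in a thinned cell averaged 1.47, 1.44 and 1.66 in Ibsp+ cells at P15, P25 and 8 weeks and 1.67, 1.33 and 1.53 in Ifitm5+ cells. It averaged 0.844, 0.327 and 0.172 in Krt14+ cells and 0.237 and 0.113 in Ptprc+ cells. Without thinning, the averages were 3.17, 3.34 and 2.36 in Ibsp+ and 4.25, 4.27 and 3.33 in Ifitm5+ cells. In thinned Ibsp+ cells the most frequent combination was Runx2 with none of the other members, at 30.2%, 20.3% and 19.7%. Without thinning it was Runx2 with Msx1 at P15 (9.66%), Runx2 with Sp7 and Msx1 at P25 (12.7%) and no member at 8 weeks (14.2%). In thinned Ifitm5+ cells of P25 no member at all was most frequent, at 21.5%, ahead of Runx2 alone (13.6%) and Sp7 alone (12.1%), and without thinning it was all members but Msx2, at 6.82%. The order of combinations differed between these depths.

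In Ibsp+ cells Runx2 and Sp7 occurred together about as often as the product of their shares. They were both found in 15.6% (13.7 to 17.6%), 16.7% (14.5 to 19.1%) and 18.6% (15.6 to 21.8%) of Ibsp+ cells, where the products were 15.6%, 16.5% and 18.7%. In Ifitm5+ cells the shares were 15.6% (12.4 to 19.3%), 16.2% (13.6 to 19.2%) and 16.7% (12.2 to 22.1%) and the products 18.5%, 15.7% and 18.1%. At this depth the intervals, which are exact binomial, held the product in all 6 cases. They cover the joint share alone, so whether the genes occur independently of each other was not tested. The widest gap was in Ifitm5+ cells of P15, at 15.6% against 18.5%.

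The neighbouring genes Dlx5 and Dlx6 occurred together more often than the product in some classes. Cells that passed no gate held both in 6.08% (5.51 to 6.69%), 5.42% (4.76 to 6.14%) and 9.96% (8.78 to 11.2%), against products of 4.6%, 3.83% and 7.12%, and Krt14+ cells of P15 in 3.46% (2.5 to 4.65%) against 1.56%. In Ibsp+ cells both were found in 0.654% (0.299 to 1.24%), 2.31% (1.49 to 3.42%) and 2.06% (1.1 to 3.5%), against 1.13%, 1.49% and 1.67%. Ifitm5+ cells had 3.47%, 1.98% and 4.6% against 3.16%, 2.05% and 3.37%. In Ibsp+ cells of P25 the product lay at the lower end of the interval. These intervals cover the joint share alone, so an excess or a lack in the mineralizing classes was not tested. Ungated cells mix cell types, whose part in the joint share was not tested.

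**Figure D4:**
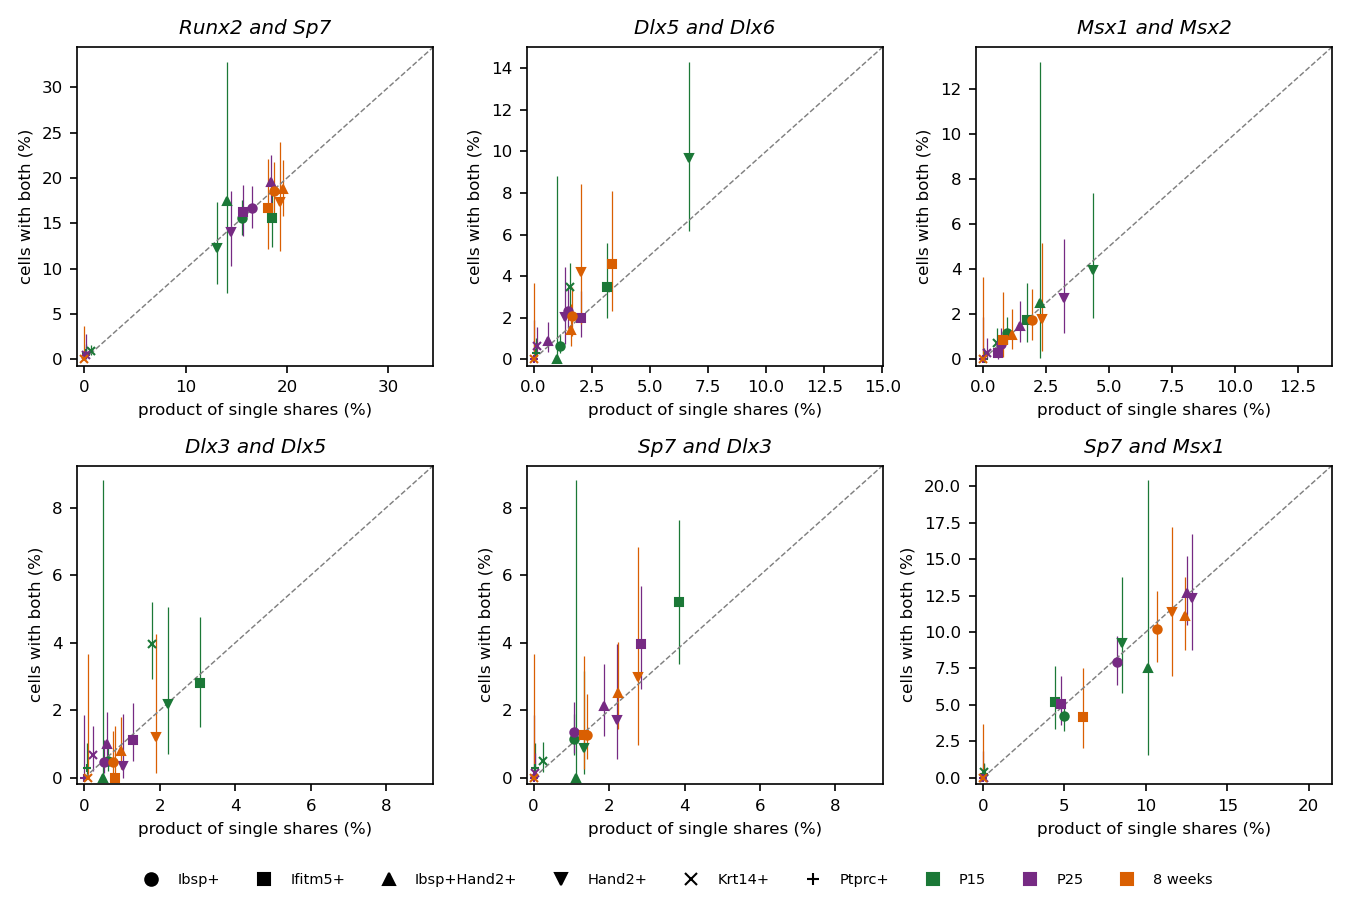
Share of cells, thinned to 3000 UMIs, in which both genes of a pair had a UMI, against the product of their single shares, both in percent, for 6 pairs of the transcription factors in 6 gated classes. Bars are exact 95% binomial intervals. Runx2 with Sp7 lies near the line of equal values in Ibsp+ cells, and its intervals cross the line in Ifitm5+ cells. Dlx5 with Dlx6 lies above the line in Krt14+ cells of P15.

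Across 20 sums of class and library, the members' log levels varied together to different degrees, given here as Pearson correlations with no test, since sums of one library share its depth and animals. Runx2 and Sp7 had 0.902, Dlx5 and Dlx6 0.882, Sp7 and Msx1 0.874 and Runx2 and Msx1 0.862. The sums include Krt14+ and Ptprc+ classes, in which Runx2, Sp7 and Msx1 were low, and the part of these classes in the correlations was not tested. Between Ibsp+ and Ifitm5+ cells Runx2 and Sp7 had opposite orders. Msx2 had 0.143 to Msx1, 0.109 to Sp7, 0.225 to Runx2 and 0.419 to Dlx6, but 0.729 to Dlx5 and 0.673 to Dlx3. Among 8772 genes, those most like Runx2 were Dlx1 (0.97), Mme (0.967) and Zfp521 (0.955). Those most like Sp7 were Scarf2 (0.976), Gpr153 (0.972) and Fkbp14 (0.971), those most like Msx1 Arhgef25 (0.982), Ndn (0.974) and Adgra2 (0.972), and those most like Dlx6 Abat (0.956), Tceal3 (0.943) and Pnmal2 (0.94). Dlx5 had C1qtnf4 (0.907) ahead of Dlx6, Dlx3 had Dync1i1 (0.916), and Msx2 had no gene above Fjx1 (0.837).

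Dlx6os1, antisense to Dlx6, was in the gene reference of P25 alone, with 4331 UMIs in 2274 cells. It measured 15.8 CPM in Ibsp+, 17.2 in Ifitm5+ and 7.01 in Ibsp+Hand2+ cells against 43.8 CPM in ungated cells. Where the reference lacks it, at P15 and 8 weeks, no value can be given. The antisense genes in Runx2 held 504, 81 and 2 UMIs at P25.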

How the data were processed

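Per the labels and the methods of the study, cells were captured with the 10x Genomics 3′ kit (v3.1) and the authors deposited counts of UMIs per gene and cell, made with Cell Ranger 6.1.2 on mm10 per the submitters' processing notes. The file header of P25 names version 6.0.1 and another gene reference. Only the 21438 identifiers present in all 3 libraries were used (99.7%, 95.16% and 99.76% of UMIs). All deposited cells were kept, and cells passing gates of different classes were set aside (344, 116 and 34). The gates per 10000 UMIs were Ibsp 10, Ifitm5 3, Hand2 1, Rgs5 5, Pappa2 3, Krt14 10 and Ptprc 1, with at least 2 UMIs. Doublets were not removed: Scrublet called 410, 0 and 16 cells, and removing the top 6% by score was an alternative.

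Sums of at least 20 cells were tested with edgeR 4.0.16 (TMM factors, filterByExpr, quasi-likelihood F test, Benjamini-Hochberg) in R 4.3.3, with DESeq2 1.42.0 as an alternative, after a test on simulated data. Classes of a library come from the same pooled animals, and their deviations from class means correlated at 0.1993 to 0.6698 within every library, so the fit with the library as a block is paired. The authors' groups were P15, P25 and 8 weeks, with 1 library each, and the depth was 188157997, 169712592 and 46234378 UMIs. Intervals are exact at 95% and cover counting error only. Python 3.11.15, scanpy 1.11.5 and scipy 1.17.1 were used. The genes named are the members, the 3 genes most like each of them by Pearson correlation of log2(CPM + 1) among genes with a mean of at least 10 CPM, and up to 3 called list genes per direction with the largest change. One such gene is not reported here. Promoter windows are RefSeq sequence of GRCm38.p6. The members, lists and tests were chosen with earlier results of these data known.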

Additional observations from a re-analysis of the deposited data

Results flagged for a closer look

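Some log2 ratios of CPM had opposite directions in libraries of different ages, with exact intervals apart from 0 in each. These differences between libraries were not tested, since each age has 1 library. Dlx6 in Ibsp+ against Hand2+ cells was -1.18 at P15 and 0.29 at P25.

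In Ibsp+ against Krt14+ cells, the P15, P25 and 8 weeks libraries had ratios of -0.473, 0.911 and 2.27 for Dlx3. They had -0.834, 0.923 and 1.91 for Dlx5 and -2.74, -0.633 and 0.973 for Msx2. All 3 genes were thus higher in the epithelium of P15 than in Ibsp+ cells and lower in the epithelium of 8 weeks. The Krt14+ class had 1858 cells at P15 and 140 at 8 weeks, where Dlx3 rested on 7 UMIs, Dlx5 on 29 and Msx2 on 16. Krt5, a second keratin of the same epithelium, was 4070, 6190 and 6340 CPM in that class.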

How the results depend on the processing

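Of 672 alternative log2 fold changes of the members, 617 kept their direction and side of the threshold, 31 newly passed it, 10 lost it and 14 changed sign. The count of members called in Ifitm5+ against Ibsp+ cells (1) became 3 with DESeq2, 6 with the library as a replicate block, 2 with doubled gates and 0 with total UMI scaling, with the joint fit of all classes or when Ibsp+ cells with Hand2, Nts or Alx1 UMIs were left out, and was 0 to 0 when 1 library was left out. Over all genes, 150 were higher and 169 lower there, against 501 and 483 with DESeq2, 914 and 944 with the block, 131 and 303 with total UMI scaling, 1 and 1 without P25 and 0 and 0 without 8 weeks. Doubled gates gave 300 and 246 of 12029 genes, and leaving out the cells with apical UMIs gave 61 and 103 of 11780. In Ibsp+ against Hand2+ cells (0 members), the block gave 1 and leaving out cells with those apical UMIs 1, where 484 and 305 of 11418 genes were called. In Ibsp+ against Rgs5+ cells (0), DESeq2 gave 2, halved gates 1 and leaving out P25 0. Leaving out P15 or 8 weeks left a single Rgs5+ sum there, so those counts are not given. Genes moved from 52 higher and 33 lower to 49 and 61 with total UMI scaling. In Ibsp+ against Krt14+ cells (3), the block gave 4 and leaving out 1 library 1 to 6. Over all genes the block called 3106 higher and 2989 lower of 13167 there. Without P15 it was 3005 and 2544 of 12728 genes, and without P25 739 and 690 of 12979. In Ibsp+Hand2+ against Hand2+ cells (0), the block gave 2 and thinned cells 2. Over all genes the block called 563 higher and 818 lower of 11223 there, and thinned cells 129 and 171 of 7517. In Ifitm5+ against Ibsp+Hand2+ cells (2), DESeq2 gave 3, the block 4, the joint fit 1 and leaving out 1 library 1 to 2, and genes moved from 948 higher and 757 lower to 664 and 1129 with total UMI scaling, which shifted the median of all genes by -0.22. The block fit pairs the classes of a library. For Ibsp+ against Rgs5+ cells it left 1 gene higher and 0 lower of all genes, and it changed no call of a member other than those counted here. Over all genes, higher and lower calls in Ibsp+ against Hand2+ cells went from 330 and 178 to 585 and 420 with DESeq2, 746 and 566 with the block, 15 and 0 without P25 and 16 and 5 without 8 weeks. Against Rgs5+ cells DESeq2 called 312 and 419, and halved gates 211 and 239 of 11383. In Ifitm5+ against Ibsp+Hand2+ cells the block called 1696 and 1457. The causes were not tested.

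Sp7 in Ibsp+ against Hand2+ cells, 0.01 as reported, was -0.0636 with total UMI scaling, -0.0912 with doubled gates, -0.23 with the Ibsp gate at 50, -0.0225 without doublets, -0.12 with thinned cells and -0.048 to 0.11 with 1 library left out. Dlx6 there ranged from -0.56 to 0.28 with 1 library left out. Dlx3 against Rgs5+ cells ranged from -0.78 to 1.34, and against Krt14+ cells from -0.0544 to 1.24, with -0.26 in thinned cells. Dlx5 against Krt14+ cells ranged from -0.21 to 1.16, with -0.35 in thinned cells. Of 468 alternative shares, 318 moved beyond their interval, all under another depth. Of 336 alternative levels in Ibsp+ and Ifitm5+ cells, 62 moved beyond their interval.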
